A study of Mus musculus with 8 samples.

Results

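The genes of lipogenesis and triglyceride (TG) synthesis were examined in brown adipose tissue (BAT), the thermogenic fat depot, by bulk RNA-seq of 4 WT and 4 Cd36KO samples. The set held 40 genes out of 31053 in the count table. They were chosen by name for their part in fatty acid synthesis, desaturation, elongation, glycerol 3-phosphate supply and TG assembly, or as regulators of these steps. All 40 had counts. The mice were C57BL6/J, all labelled as 8 weeks old, and the label of the deficient group reads only Cd36KO. Cd36 encodes a scavenger receptor and fatty acid transporter. The study describes germline mutants as well as mice carrying CD36 flox/flox and Csf1r Cre, in which the Csf1r promoter drives the recombinase in myeloid cells, and its text attributes the BAT transcriptome to the latter. A figure legend of the study gives the same age as the label, whereas its methods give a later age at sacrifice for those mice. The labels give no treatment for either group. The study's methods say that tissues were taken after a fast, without naming the mouse lines this covered. The comparison used here asks whether TG-building genes of BAT differed between the genotypes.

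The sample labels name the stromal vascular fraction as the cell type and BAT as the tissue. Transcripts of mature adipocytes were abundant in every library, with 2458 to 6294 normalized counts of Adipoq (adiponectin) and 4235 to 12312 of Ucp1, the uncoupling protein of brown adipocytes. A normalized count here is the count divided by the library's DESeq2 size factor. Total counts ranged from 2679785 to 4097953 per library. The methods describe male mice, whereas Xist had between 772 and 1588 counts in all 8 libraries and none of 3 Y-linked genes had a count. WT replicate 1 stood apart from the other libraries, with skeletal muscle markers summing to 22960 CPM (counts scaled to a common library total) against 131 to 4573 elsewhere, and with white fat markers at 257.6 CPM, where the remaining WT libraries had 1332 to 1561. Cd36 itself gave 2796, 2958, 3505 and 2412 normalized counts in WT replicates 1 to 4, 1926 in the Cd36KO library whose column carries no replicate number, and 2109, 2384 and 1930 in Cd36KO replicates 2 to 4. All Cd36KO values lay below all WT values, and the log2 fold change was -0.48 (SE 0.16, DESeq2 adjusted p = 0.0602).

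Fatty acids are built from cytosolic acetyl-CoA, which is carboxylated to malonyl-CoA and then joined into palmitate by fatty acid synthase with NADPH as reductant. Palmitate is elongated and desaturated, and the acyl chains are placed one after the other on glycerol 3-phosphate, dephosphorylated and closed to TG by a diacylglycerol acyltransferase. BAT is known for running TG synthesis and TG breakdown side by side, and its lipogenic enzymes are known to respond to insulin and to the transcription factors SREBP-1c and ChREBP.

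Across these steps, DESeq2 called 2 genes between the genotypes, and most genes of fatty acid synthesis differed widely between libraries of one genotype. Gpd1, which makes glycerol 3-phosphate from the glycolytic intermediate dihydroxyacetone phosphate, rose in Cd36KO by DESeq2, and Pck1, the enzyme of glyceroneogenesis, fell. Of the 37 genes with an adjusted p, these were the only calls, 1 higher and 1 lower, where 1.42% of all 9619 genes were called higher and 1.53% lower. The share of called members, 2 of 37, stood beside 2.95% for all genes. The edgeR quasi-likelihood test called 0 of the 37, against 0.143% of all genes (0.0408% higher and 0.102% lower), and 6 had an unadjusted p under 0.05 in that test as in DESeq2. By DESeq2 those 6 were 2 higher and 4 lower, beside 7.69% and 7.88% of all genes. The fold change was above 0 in 22 genes (59.5%, where 49.2% of all genes had one) and below 0 in 15, with a median log2 value of 0.08 beside -0.01 for all genes. The remaining 3, Fads2, Elovl7 and Lpin3, had means of under 10 normalized counts and no adjusted p.

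**Figure D1:**
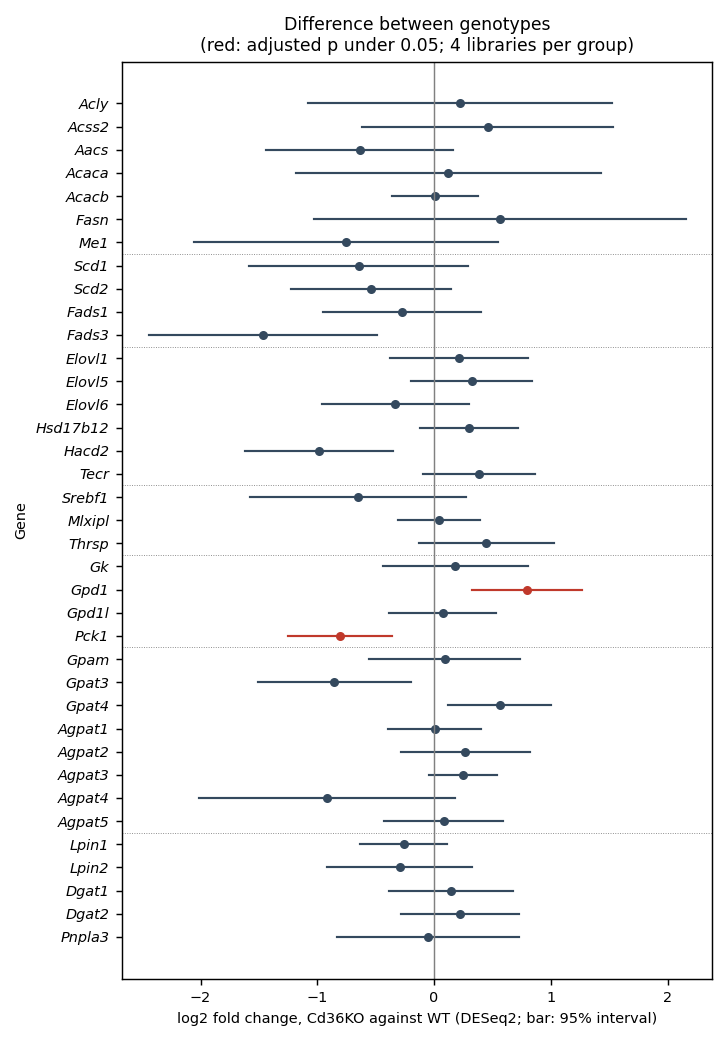
Difference between genotypes for the 37 genes with a mean of at least 10 normalized counts. The x axis is the DESeq2 log2 fold change of Cd36KO against WT with its 95% interval, genes are ordered by role, and red marks an adjusted p under 0.05, which Gpd1 (0.80) and Pck1 (-0.81) reached.

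Levels per length spread widely along the pathway. On the scale of mean normalized counts per kilobase of exon, Scd1 came first with 7450, followed by Thrsp with 4000, Gpd1 with 2870 and Fasn with 2010. Agpat2 (1010), Dgat2 (877), Pck1 (546), Hsd17b12 (439), Dgat1 (423) and Gpat4 (366) formed the next tier. Fads1 (8.66), Agpat5 (6.49), Srebf1 (5.43), Agpat4 (4.50), Lpin2 (3.72), Lpin3 (1.73), Elovl7 (1.01) and Fads2 (0.347) were at the low end. Where along the transcript the reads fell was not stated for this digital mRNA-seq service, so these per-length levels hold only if reads covered whole transcripts. Together the 40 genes held 1.77, 3.72, 3.30 and 3.88% of all counts in WT replicates 1 to 4, 3.85% in the unnumbered Cd36KO library and 2.47, 1.59 and 4.49% in Cd36KO replicates 2 to 4. The means of 3.17% ± 0.962 and 3.10% ± 1.32 (SD, n = 4 each) differed by less than either SD. 

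**Figure D2:**
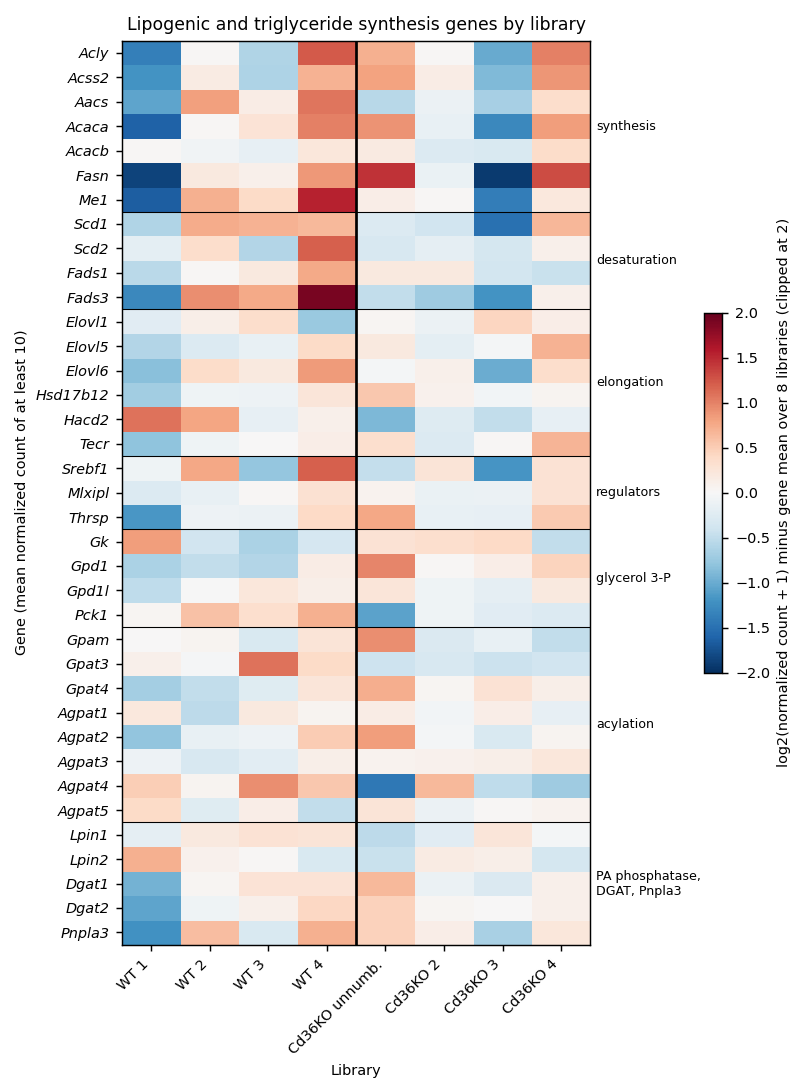
Each cell is log2(normalized count + 1) of a gene in a library minus the gene's mean over the 8 libraries, clipped at 2 in either direction. Apart from Acacb, the synthesis genes at the top are low in WT replicate 1 and Cd36KO replicate 3. They are mostly high in WT replicate 4 and Cd36KO replicate 4. Among acylation genes, only Agpat2 has both its lowest WT value in WT replicate 1 and its lowest Cd36KO value in Cd36KO replicate 3.

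Fasn encodes fatty acid synthase and lies on chromosome 11 (ENSMUSG00000025153, GRCm38 chr11:120805846-120824547, minus strand). It gave 4568, 18799.9, 17585 and 29904 normalized counts in WT replicates 1 to 4, 44956 in the unnumbered Cd36KO library, and 14937, 4382 and 40545 in Cd36KO replicates 2 to 4. The highest and the lowest values both belonged to Cd36KO libraries, and the range within a genotype was 6.55-fold in WT and 10.3-fold in Cd36KO. The WT mean was 17714 ± 10370.2 and the Cd36KO mean 26205 ± 19667.5 (SD, n = 4 each). The log2 fold change of 0.56 had a 95% interval from -1.02 to 2.15 (DESeq2 adjusted p = 0.810), which spans changes in both directions. Leaving out each library in turn moved it between 0.18, without the unnumbered Cd36KO library, and 0.94, without WT replicate 4, with no call.

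Acaca, the acetyl-CoA carboxylase that feeds cytosolic fatty acid synthesis, was likewise lowest in WT replicate 1 among WT and in Cd36KO replicate 3 among Cd36KO libraries. Its normalized counts were 793, 2468, 2937 and 4888 in WT replicates 1 to 4, 4541 in the unnumbered Cd36KO library, and 2181, 998 and 4343 in Cd36KO replicates 2 to 4. The groups overlapped over nearly their whole ranges, and the log2 fold change was 0.12 (95% interval -1.18 to 1.43, DESeq2 adjusted p = 0.962). Acly, which splits citrate into acetyl-CoA, gave 393, 1032, 666 and 2369 in WT replicates 1 to 4, 1651 in the unnumbered Cd36KO library, and 1025, 505 and 2029 in Cd36KO replicates 2 to 4. Again WT replicate 1 and Cd36KO replicate 3 were the lowest of their groups, and the log2 fold change was 0.22 (95% interval -1.08 to 1.53, DESeq2 adjusted p = 0.925).

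The other genes of this step were Acss2 and Aacs, which activate acetate and acetoacetate, Acacb, the carboxylase at the outer mitochondrial membrane, and Me1, the malic enzyme that supplies NADPH. Their log2 fold changes were 0.46, -0.64, 0.01 and -0.76, and none of the 7 genes of the step was called or had an unadjusted p under 0.05 by DESeq2 or edgeR. Me1 ranged 9.13-fold within WT. Acacb ranged only 1.32-fold within WT and 1.58-fold within Cd36KO, from 900 to 1423 normalized counts over all 8 libraries, so the carboxylase of the mitochondrial surface did not share the spread of Acaca. Exons of Acss2 overlap those of Ggt7 and Gss, and the strand setting of the counting was not stated.

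**Figure D3:**
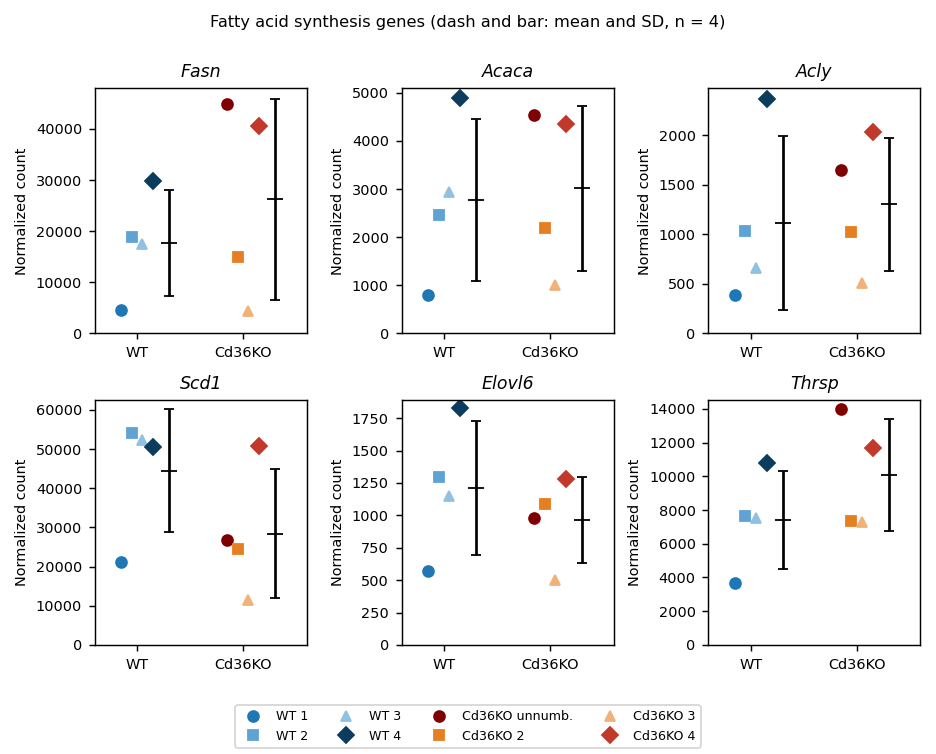
Normalized counts of Fasn, Acaca, Acly, Scd1, Elovl6 and Thrsp in each library, with the mean and SD of 4 libraries per genotype. WT and Cd36KO points overlap in all 6 panels, and for Fasn the Cd36KO libraries extend from 4382 to 44956.

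The spread of the lipogenic enzymes within genotypes was wide beside that of most genes of similar level. The SD of log2(normalized count + 1) within genotypes had a median of 0.474 over the 23 members with a mean of at least 100 normalized counts, and of 0.27 over all 3519 genes at that level. For 7 of the 23 (Acly, Acss2, Acaca, Fasn, Me1, Scd1 and Elovl6) the SD was larger than in 95% of those genes, and Fasn, at 1.38, exceeded 99%. Other genes were steady. Agpat3, an acyltransferase of TG assembly, had an SD of 0.142 and Mlxipl of 0.225, below those of most genes, and Pck1 (0.381) and Gpd1 (0.397) lay between.

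**Figure D4:**
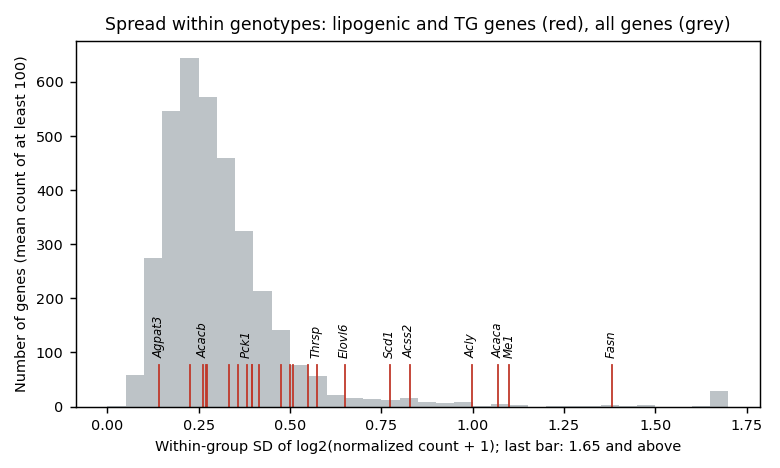
Grey bars count the 3519 genes with a mean of at least 100 normalized counts by their within-genotype SD of log2(normalized count + 1), and the last bar holds all larger values. Red lines mark the 23 lipogenic and TG synthesis genes at that level, with Fasn at 1.38 and Agpat3 at 0.142.

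The same libraries were low in gene after gene. WT replicate 1 was the lowest WT library and Cd36KO replicate 3 the lowest Cd36KO library for 16 of the 37 genes with a mean of at least 10 normalized counts (43.2%), a description chosen after the values were seen, against 9.44% of 9834 genes overall. For the synthesis step the count was 6 of 7, with Acacb as the exception, and for acylation 1 of 8. WT replicate 4 was the highest WT library for 26 of the 37 genes (70.3%), against 31.2% of all genes. In WT replicate 1, Adipoq was also lowest, at 2458 normalized counts against 5212 to 6294 in the other WT libraries, beside the muscle and white fat values given above. In Cd36KO replicate 3, the Adipoq count of 4038 lay within the 3904 to 4400 of its group and the muscle markers, at 131 CPM, were the lowest of all. Its white fat markers summed to 198.2 CPM, between the 187.7 CPM of Cd36KO replicate 4 and the other libraries, and their mean log2 CPM of 2.85 was the lowest of the 8. With both libraries left out, a fit added after the data were seen, DESeq2 called 0 members higher and 3 lower (Me1, Fads3 and Pck1), beside 2.07% of all genes, 0.521% higher and 1.55% lower. The part of tissue composition in the order of the libraries was not tested, and in bulk tissue fewer cells of a type and less RNA per cell cannot be told apart.

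Promoter sequences were read for Fasn, whose spread was the widest among members with a mean of at least 100 normalized counts, a regulator with a similar library order and the gene that fell, to show what they hold. RefSeq (GRCm38.p6) gave 42 promoters, each from 250 bases before to 50 after a start site, for 32 of the 40 genes. On both strands, CCAAT was searched, the letters bound by the factor NF-Y, together with the E-box CACGTG and TCACNCCAC, the core of a sterol regulatory element. CCAAT occurred in 20 of the 42 (47.6%) against 37.4% of all 32851 promoters, the E-box in 6 (14.3%) against 7.15%, and the sterol element core in 1 (2.38%), of Mlxipl, against 1.24%. The lines give the promoters of Fasn (chr11:120824498-120824797, minus strand), Thrsp (chr7:97417501-97417800, minus strand) and Pck1 (chr2:173152823-173153122, plus strand), 5′ to 3′, with CCAAT or its reverse complement in capitals.
Fasn: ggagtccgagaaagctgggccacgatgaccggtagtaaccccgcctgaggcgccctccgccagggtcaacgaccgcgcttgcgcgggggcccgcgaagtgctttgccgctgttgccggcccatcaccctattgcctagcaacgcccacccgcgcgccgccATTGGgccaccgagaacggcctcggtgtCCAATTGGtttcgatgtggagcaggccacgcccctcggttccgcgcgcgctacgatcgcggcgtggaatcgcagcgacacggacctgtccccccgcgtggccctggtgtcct
Thrsp: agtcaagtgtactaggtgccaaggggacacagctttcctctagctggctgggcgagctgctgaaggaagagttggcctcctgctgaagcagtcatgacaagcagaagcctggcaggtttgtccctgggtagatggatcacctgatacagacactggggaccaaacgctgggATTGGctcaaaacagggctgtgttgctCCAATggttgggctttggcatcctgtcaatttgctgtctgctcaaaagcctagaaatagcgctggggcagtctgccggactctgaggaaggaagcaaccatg
Pck1: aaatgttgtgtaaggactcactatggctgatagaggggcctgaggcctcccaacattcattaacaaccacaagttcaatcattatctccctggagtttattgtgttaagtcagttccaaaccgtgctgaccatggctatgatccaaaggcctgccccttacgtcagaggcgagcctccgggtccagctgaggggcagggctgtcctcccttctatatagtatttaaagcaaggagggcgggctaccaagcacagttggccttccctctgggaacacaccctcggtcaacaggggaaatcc
In Fasn the motif began 90 bases before the start on the reverse strand, 62 bases before it on the forward strand and 59 bases before it on the reverse strand, the last pair overlapping. Thrsp held a reverse copy 79 bases and a forward copy 52 bases before the start. In Pck1 none of the 3 motifs was found in this window. These are letter matches, not measured binding.

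Desaturation was the step in which every tested gene had a fold change below 0. Scd1, the stearoyl-CoA desaturase that makes oleate and palmitoleate, gave 21141, 54025, 52404 and 50405 normalized counts in WT replicates 1 to 4, 26751 in the unnumbered Cd36KO library, and 24601, 11499 and 50839 in Cd36KO replicates 2 to 4. Apart from WT replicate 1 and Cd36KO replicate 4 the genotypes were separate, and with these libraries they overlapped. The log2 fold change was -0.65 (95% interval -1.59 to 0.29, DESeq2 adjusted p = 0.553). Scd2, a second desaturase gene, had a log2 fold change of -0.54, and Fads1, the delta-5 desaturase of polyunsaturated fatty acids, of -0.27. Fads3, which desaturates sphingoid bases, gave 18.1, 87.5, 77.6 and 173 in WT replicates 1 to 4, 32.3 in the unnumbered Cd36KO library, and 27.6, 19.4 and 48.8 in Cd36KO replicates 2 to 4. WT replicate 1 was the lowest of all 8, and the log2 fold change of -1.47 missed the threshold (SE 0.50, DESeq2 adjusted p = 0.0765). Without WT replicate 1 it was -1.80 (DESeq2 adjusted p = 1.0e-04), and without WT replicate 4, the highest library, -0.92 (adjusted p = 0.236).

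Among elongation genes, Elovl6, which lengthens palmitate, gave 567, 1297, 1151 and 1826 normalized counts in WT replicates 1 to 4, 982 in the unnumbered Cd36KO library, and 1085, 504 and 1280 in Cd36KO replicates 2 to 4. Both genotypes covered much the same range, with a log2 fold change of -0.33 (95% interval -0.96 to 0.30, DESeq2 adjusted p = 0.690), and its exons overlap those of Gm35986. The elongases Elovl1 and Elovl5, the ketoacyl-CoA reductase Hsd17b12 and the enoyl-CoA reductase Tecr had log2 fold changes between 0.21 and 0.38. Hacd2, a dehydratase of the elongation cycle, gave 131, 105, 54.1 and 65.3 normalized counts in WT replicates 1 to 4, 32.3 in the unnumbered Cd36KO library, and 50.6, 43.0 and 54.2 in Cd36KO replicates 2 to 4. The genotypes were separate except that WT replicate 3 and Cd36KO replicate 4 were level, and the log2 fold change of -0.98 missed the threshold (SE 0.32, DESeq2 adjusted p = 0.0648). It passed without WT replicate 3 (-1.15, DESeq2 adjusted p = 0.0403), as it did when WT replicate 4 was left out (-1.11, adjusted p = 0.0226), and was -0.67 with the muscle score as a covariate (adjusted p = 0.512).

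None of the 3 regulators was called, and none had an unadjusted p under 0.05 by DESeq2 or edgeR. Thrsp, the nuclear protein Spot 14 that accompanies lipogenesis, gave 3665, 7663, 7507 and 10778 normalized counts in WT replicates 1 to 4, 14024 in the unnumbered Cd36KO library, and 7363, 7282 and 11707 in Cd36KO replicates 2 to 4. WT replicate 1 was low and the unnumbered Cd36KO library high, with a log2 fold change of 0.45 (95% interval -0.13 to 1.03, DESeq2 adjusted p = 0.494). Mlxipl, which encodes ChREBP, was even across libraries, with 399, 437, 491 and 599 in WT replicates 1 to 4, 506 in the unnumbered Cd36KO library, and 443, 446 and 589 in Cd36KO replicates 2 to 4. Its log2 fold change was 0.05, with a 95% interval from -0.31 to 0.40 (DESeq2 adjusted p = 0.945). Srebf1, the gene of SREBP-1, was scarce, at 25.3, 46.7, 15.3 and 62.3 in WT replicates 1 to 4, 18.9 in the unnumbered Cd36KO library, and 32.2, 11.3 and 32.8 in Cd36KO replicates 2 to 4. Here the interval was wide, from -1.58 to 0.28 around a log2 fold change of -0.65 (DESeq2 adjusted p = 0.540), and its exons overlap those of Rai1 on the other strand.

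Glycerol 3-phosphate supply held both calls. Gpd1, glycerol-3-phosphate dehydrogenase of the cytosol, lies on chromosome 15 (ENSMUSG00000023019, GRCm38 chr15:99717515-99725005, plus strand). Its normalized counts were 5089, 5636, 5297 and 8799.6 in WT replicates 1 to 4, 15556 in the unnumbered Cd36KO library, and 8055, 8686 and 10787 in Cd36KO replicates 2 to 4. Only WT replicate 4 reached into the Cd36KO range, above Cd36KO replicates 2 and 3. The WT mean was 6206 ± 1744 and the Cd36KO mean 10771 ± 3397 (SD, n = 4 each), a 1.74-fold difference. The log2 fold change was 0.80 (SE 0.24, DESeq2 adjusted p = 0.0387), with an edgeR adjusted p of 0.158 and p = 0.0857 in an exact two-sided permutation test.

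Pck1, cytosolic phosphoenolpyruvate carboxykinase, lies on chromosome 2 (ENSMUSG00000027513, GRCm38 chr2:173153048-173159273, plus strand) and makes the precursor of glycerol 3-phosphate from oxaloacetate when glucose is short. It gave 1797, 2648, 2209 and 2876 normalized counts in WT replicates 1 to 4, 833 in the unnumbered Cd36KO library, and 1652, 1502 and 1462 in Cd36KO replicates 2 to 4. Every Cd36KO library was below every WT library. Such a gap without overlap was seen in 2 of the 37 genes, Pck1 and Gpat3, both with Cd36KO below, and in 8.65% of the 9834 genes with a mean of at least 10 normalized counts, 4.74% with Cd36KO above and 3.91% with it below. The WT mean was 2383 ± 479 and the Cd36KO mean 1362 ± 362 (SD, n = 4 each), a ratio of 0.572. The log2 fold change was -0.81 (SE 0.23, DESeq2 adjusted p = 0.0231), with an edgeR adjusted p of 0.133 and p = 0.0286 in an exact two-sided permutation test, the smallest that 4 against 4 libraries allow.

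Neither call held in every fit. Leaving out each library in turn, Gpd1 kept an adjusted p under 0.05 in 3 of 8 fits and Pck1 in 4 of 8, while the log2 fold change ran from 0.57 to 1.01 for Gpd1 and from -0.92 to -0.63 for Pck1. Without the unnumbered Cd36KO library, which was the highest for Gpd1 and the lowest for Pck1, DESeq2 gave Gpd1 0.57 (adjusted p = 0.235) and Pck1 -0.63 (adjusted p = 0.0670). Over the 6 libraries numbered 2 to 4 in both groups, Gpd1 was at 0.48 (DESeq2 adjusted p = 0.324), or 0.51 with the number as a block (adjusted p = 0.116). Pck1 kept its call in both of these fits, at -0.742 (DESeq2 adjusted p = 6.7e-04) and -0.736 with the block (adjusted p = 0.0037). Without WT replicate 1 the values were 0.71 for Gpd1 (DESeq2 adjusted p = 0.0623) and -0.92 for Pck1 (adjusted p = 0.0015).

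**Figure D5:**
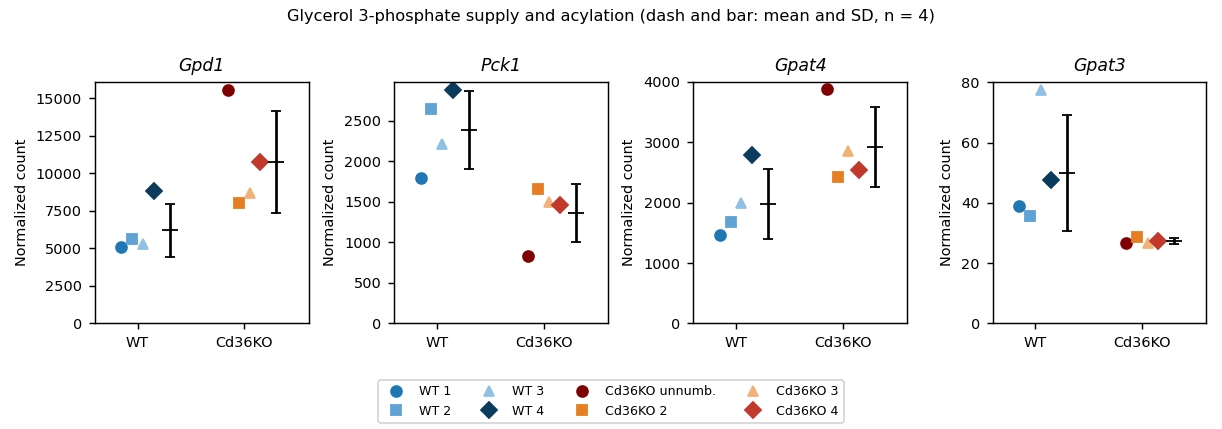
Normalized counts of Gpd1, Pck1, Gpat4 and Gpat3 in each library, with the mean and SD of 4 libraries per genotype. For Pck1 and Gpat3 all Cd36KO points lie below all WT points, whereas for Gpd1 and Gpat4 WT replicate 4 falls within the Cd36KO range.

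Among the cell type lists, brown adipocyte and white fat markers held most of the DESeq2 calls between genotypes. Of the brown adipocyte list all 7 genes had fold changes above 0, and 4 were called higher by DESeq2 and 0 by edgeR (6 at an unadjusted p under 0.05 in each), with a summed level of 5390 to 7108 CPM in WT and 10140 to 11780 CPM in Cd36KO. All 6 general adipocyte markers had fold changes below 0 with none called (DESeq2 unadjusted p under 0.05 for 2, edgeR 0 called), and their sums were 7869 to 11390 CPM against 5171 to 7427 CPM. Of 7 tested white fat markers 5 were lower by DESeq2, and 4 of 6 by edgeR, with sums of 257.6 to 1561 CPM in WT and 187.7 to 305 CPM in Cd36KO, with Hoxc10 and Wt1 at 0 counts throughout. All 14 skeletal muscle markers had fold changes below 0, with a median log2 value of -3.03 and sums of 345 to 22960 CPM in WT and 131 to 2892 CPM in Cd36KO, yet none was called by DESeq2 or edgeR (7 and 12 at an unadjusted p under 0.05). DESeq2 and edgeR also called none of 8 macrophage and 5 endothelial markers tested (1 and 0 at an unadjusted p under 0.05 by DESeq2), and 1 of 6 stromal progenitor markers was lower. With the white fat score as a covariate the log2 fold change of Pck1 was -0.49 (DESeq2 adjusted p = 0.447) and that of Gpd1 1.39 (adjusted p = 0.0028). That fit called 14 of the 36 genes it tested higher, Fasn, Acaca, Thrsp, Dgat1 and Dgat2 among them with Elovl6, which turned from -0.33 to 1.19 (DESeq2 adjusted p = 0.0226), and 1 (Hacd2) lower, where it called 9.07% of all genes, 7.17% higher and 1.90% lower. WT replicate 1 was the only WT library with a low white fat score (3.72, against 2.85 to 3.64 in Cd36KO and 5.47 to 5.75 in the other WT libraries). Separating the score from the genotype thus rested largely on this library, and the fit was not run without it. With the muscle score as a covariate Gpd1 (1.07) and Pck1 (-1.15) were called as before. The part of the brown and general adipocyte markers in these differences was not tested.

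Gk, glycerol kinase, which reuses glycerol inside brown adipocytes, gave 389, 168, 140 and 172 normalized counts in WT replicates 1 to 4, 267 in the unnumbered Cd36KO library, and 277, 288 and 155 in Cd36KO replicates 2 to 4. WT replicate 1 was the highest and the other WT libraries were low, and the log2 fold change was 0.18 (95% interval -0.44 to 0.80, DESeq2 adjusted p = 0.848). Gpd1l, a second dehydrogenase gene, had a log2 fold change of 0.08.

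In the first acylation of glycerol 3-phosphate, Gpat3 and Gpat4, the enzymes of the endoplasmic reticulum, had fold changes of opposite sign, neither of them called, and that of the mitochondrial enzyme Gpam was near 0. Gpat3 (GRCm38 chr5:100845713-100899102, plus strand) gave 38.8, 35.7, 77.6 and 47.5 normalized counts in WT replicates 1 to 4, 26.7 in the unnumbered Cd36KO library, and 28.8, 26.6 and 27.5 in Cd36KO replicates 2 to 4. All Cd36KO values were below all WT values and close to each other, with a log2 fold change of -0.85 (SE 0.33, DESeq2 adjusted p = 0.151, exact two-sided permutation p = 0.0286). Without WT replicate 3, the highest library, it was -0.57 (DESeq2 adjusted p = 0.576), and with the white fat score as a covariate -0.42 (adjusted p = 0.739). It shares exon sequence with Gm42987 and 4930458D05Rik and had 310 counts in all, so counting noise was sizeable. Gpat4 was far more abundant, at 1460 (WT replicate 1), 1673, 1987 and 2784 in WT, 3876 in the unnumbered Cd36KO library, and 2416, 2856 and 2534 in Cd36KO replicates 2 to 4. WT replicate 4 lay inside the Cd36KO range, and the log2 fold change was 0.56 (SE 0.22, DESeq2 adjusted p = 0.159). Without WT replicate 4 it was 0.77 and passed the threshold (DESeq2 adjusted p = 0.0042), and without the unnumbered Cd36KO library it was 0.40 (adjusted p = 0.575). Per kilobase of exon the mean normalized counts were 366 for Gpat4 and 11 for Gpat3.

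Gpam gave 64.1, 66.3, 51.8 and 76.2 normalized counts in WT replicates 1 to 4, 123 in the unnumbered Cd36KO library, and 51.8, 57.3 and 45 in Cd36KO replicates 2 to 4. The unnumbered library alone lay outside the WT range on the high side, and the log2 fold change was 0.09 (95% interval -0.56 to 0.74, DESeq2 adjusted p = 0.938). Agpat2, the acyltransferase that makes phosphatidate and whose loss causes lipodystrophy, gave 1177, 1835, 1902 and 2896 in WT replicates 1 to 4, 3642 in the unnumbered Cd36KO library, and 1996, 1661 and 2113 in Cd36KO replicates 2 to 4. Its groups overlapped, with a log2 fold change of 0.27 (95% interval -0.28 to 0.82, DESeq2 adjusted p = 0.724), and its exons overlap those of Egfl7, which had 3594 counts. The related genes Agpat1, Agpat3 and Agpat5 had log2 fold changes from 0.01 to 0.25, and Agpat4, with a mean of 12.2 normalized counts, of -0.92. No acylation gene was called by DESeq2 or edgeR, and 2 of 8 had an unadjusted p under 0.05 in each.

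No gene of the last steps was called. Lpin1, a phosphatidate phosphatase and coactivator, gave 964, 1249, 1334 and 1312 normalized counts in WT replicates 1 to 4, 765 in the unnumbered Cd36KO library, and 933, 1295 and 1067 in Cd36KO replicates 2 to 4. Its log2 fold change was -0.26 (95% interval -0.63 to 0.11, DESeq2 adjusted p = 0.551). Dgat1 gave 644, 1273, 1496 and 1504 in WT replicates 1 to 4, 1936 in the unnumbered Cd36KO library, and 1147, 1016 and 1328 in Cd36KO replicates 2 to 4. Dgat2, the acyltransferase tied to newly made fatty acids, gave 1246, 2461, 2792 and 3477 in WT replicates 1 to 4, 3564 in the unnumbered Cd36KO library, and 2672, 2626 and 2801 in Cd36KO replicates 2 to 4. In both genes WT replicate 1 was the lowest of the 8 libraries and the other values overlapped. The 95% intervals of the log2 fold change were -0.39 to 0.67 around 0.14 for Dgat1 (DESeq2 adjusted p = 0.866) and -0.28 to 0.73 around 0.23 for Dgat2 (adjusted p = 0.752). The ratio of Dgat2 to Dgat1 counts averaged 2.01 ± 0.203 for WT and 2.22 ± 0.317 for Cd36KO (SD, n = 4 each), and the groups overlapped. Lpin2 and the lipase and acyltransferase Pnpla3 had log2 fold changes of -0.29 and -0.05. None of the 5 tested genes had an unadjusted p under 0.05 by DESeq2 or edgeR.

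A wider list of 42 pathway genes held elongases, acyl-CoA synthetases, phosphatidate phosphatases, citrate and NADPH suppliers and regulators of SREBP and ChREBP. Of these, 32 had an adjusted p, and DESeq2 called 0 higher and 1 lower, beside 1.42% and 1.53% of all genes. At an unadjusted p under 0.05 there were 0 higher and 4 lower, beside 7.69% and 7.88% of all genes. The edgeR test called 0, beside 0.143% of all genes. The fold change was above 0 in 16 and below 0 in 16. The call was Lpgat1, a lysophosphatidylglycerol acyltransferase, which gave 148, 227, 195 and 298 normalized counts in WT replicates 1 to 4, 116 in the unnumbered Cd36KO library, and 107, 131 and 153 in Cd36KO replicates 2 to 4. Only Cd36KO replicate 4 reached the lowest WT value, and the log2 fold change was -0.77 (SE 0.24, DESeq2 adjusted p = 0.0470, edgeR adjusted p = 0.126). It kept the DESeq2 call in 1 of the 8 fits that left out a library, and was -0.80 with the muscle score (adjusted p = 0.205) and -0.10 with the white fat score as a covariate (adjusted p = 0.907). The 3 others with an unadjusted p under 0.05 were the acyl-CoA synthetases Acsl1 (log2 fold change -0.36) and Acsl4 (-0.62) and the NADPH source Idh1 (-0.61), with adjusted p-values between 0.222 and 0.266 by DESeq2.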

How the data were processed

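RNA-seq libraries of BAT from 4 WT and 4 Cd36KO samples were used, grouped by their labels. As the study's methods give it, single-end reads went through bbduk, STAR (mm10, which is GRCm38) and HTSeq-count. The submitters' processing notes list Trimmomatic and HISAT2 instead, and it is not known which made the table. The deposited values are whole-number counts per gene. A second deposited table holds the authors' log2 values, which equal log2 of the normalized count plus 1. For 1 Cd36KO library the column name lacks a replicate number. Strand setting and molecular identifiers are not given in the sources used here. The study gives 4 mice per group, and each library was taken as 1 mouse. Every pair of libraries differed by more than sampling noise (chi-square per degree of freedom at least 7.07), and reads without molecular identifiers may be copies of one molecule.

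DESeq2 1.42.0 (genotype only, Benjamini-Hochberg over all genes, threshold 0.05, default filters, unshrunken fold changes) in R 4.3.3 was the main test, as in the study's methods. It was also run on simulated counts with a single dispersion for all genes, which cannot speak for genes as variable as Fasn. Alternatives were edgeR 4.0.16, TMM factors, a count filter, no independent filtering, limma 3.58.1 on the log2 values, marker score covariates, a replicate block and leave-one-out. A fit without WT replicate 1 and Cd36KO replicate 3 was added after seeing the data. Single genes were also tested by exact permutation over 70 arrangements (SciPy 1.17.1). Symbols (30934 of 31053 identifiers) and 1-based coordinates came from GENCODE M21. Named genes are those called or not overlapping, a fixed list of key enzymes, and Fads3, Hacd2, Gpat4, Acsl1, Acsl4 and Idh1, which were named after their values were seen. The genes and lists were chosen with earlier results of these data known. Figures used matplotlib 3.10.9.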

Additional observations from a re-analysis of the deposited data

Results flagged for a closer look

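In 2 of 44 groups of 4 libraries, 1 library lay far from the others by Dixon's criterion, where chance gives about 2.2. Scd1 in WT replicate 1 was the lowest of its group, at 14.4 on the log2(normalized count + 1) scale (21141 normalized counts), with the nearest WT library at 15.6. This is the library with the highest muscle and the lowest white fat markers of the WT group, and their part in the value was not tested. Gk in Cd36KO replicate 4 was the lowest of its group, at 7.28 on the same scale (155 normalized counts), with the nearest Cd36KO library at 8.07.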

How the results depend on the processing

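The members called, 1 higher and 1 lower, were 0 and 0 with edgeR, which called 14 of all genes, and with limma, which called 0 of 9793 (1542 at an unadjusted p under 0.05). TMM factors, the count filter and the muscle score gave 1 and 1, beside 3.92, 2.98 and 1.86% of all genes called in these fits. Independent filtering off gave 0 and 1, beside 0.985% of all genes. The white fat score gave 14 and 1 (659 genes called in all). Leaving out each library in turn gave 0 to 2 higher and 0 to 2 lower, with 69 to 507 calls over all genes (0.678 to 8.16%). No member was called without WT replicate 2, the unnumbered Cd36KO library or Cd36KO replicate 4. Without both WT replicate 1 and Cd36KO replicate 3, 0 were higher and 3 lower (Me1, Fads3 and Pck1). Members whose groups did not overlap went from 2 to 1 at a mean of at least 50 normalized counts, where Gpat3 drops out, and to 3 on the CPM scale, where Gpd1 is added. The share of all genes was not counted under these 2 settings. In DESeq2 fits the log2 fold change of Cd36 was -0.49 under TMM factors (adjusted p = 0.0494) and -0.67 under the muscle score (adjusted p = 0.0381), both past the threshold. In the leave-one-out fits it ran from -0.56 to -0.38 and passed in 1, without WT replicate 4 (-0.56, adjusted p = 0.0066).

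Deviations of log2 CPM from the genotype mean were compared between same-numbered WT and Cd36KO libraries, over genes with a mean of at least 50 normalized counts. They correlated at -0.124, 0.394 and 0.138, so the numbers were not taken as pairs. With the replicate block over the 6 libraries numbered 2 to 4, 0 members were higher and 3 lower (219 genes called in all, 1.81%). In those libraries without the block the counts were 0 and 2 (262 genes, 2.29%). Directions turned in both fits, with block and without: Acly -0.21 and -0.19, Acaca -0.62 and -0.45, Fasn -0.61 and -0.15, Mlxipl -0.044 and -0.042, Gpam -0.33 and -0.34, Agpat2 -0.17 and -0.20, Dgat1 -0.29 and -0.29, Dgat2 -0.092 and -0.11. None of these was called in any of them. Under the white fat score Fads3 (1.5), Scd1 (0.84), Elovl6 (1.19, called), Srebf1 (0.22) and Gk (-0.87) turned, and under limma Gpam (-0.0069). Leave-one-out values ran from -0.071 to 0.90 for Acly, -0.19 to 0.54 for Acaca, -0.048 to 0.17 for Mlxipl, -0.076 to 0.26 for Dgat1, -0.34 to 0.26 for Gpam and -0.019 to 0.52 for Agpat2, and, with no turn or call, from 0.18 to 0.94 for Fasn, 0.22 to 0.68 for Thrsp, -1.09 to -0.38 for Scd1, -0.57 to -0.064 for Elovl6, 0.023 to 0.62 for Gk, -0.90 to -0.30 for Srebf1, -0.39 to -0.14 for Lpin1 and 0.0020 (without WT replicate 1) to 0.43 for Dgat2. Over 21 named genes, without Cd36, Acsl1, Acsl4 and Idh1, 137 of 168 leave-one-out values and 163 of 210 others kept direction and call. For genes without a call this meant staying uncalled. Of the called genes, Gpd1 kept its call in 3 of 8 leave-one-out fits, Pck1 in 4 of 8 and Lpgat1 in 1 of 8. The cause of these changes was not tested.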
